A study of Mus musculus with 6 samples.

Results

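The 29 genes described here mark liver macrophages, and they were taken by symbol from the Ensembl gene tables of the 6 libraries. All 29 were found among the 37991 genes of the tables, and all 29 passed the filter on low counts that left 17558 genes for testing. They fall into 8 resident Kupffer cell genes, 3 genes of complement C1q, 7 genes shared by most macrophages, 5 genes of recruited monocytes, 2 genes of lipid-associated macrophages and 4 genes of antigen presentation by major histocompatibility complex (MHC) class II. RNA was sequenced from liver of mice with the Alb-Cre transgene alone (TgAlbCre, control liver), from liver of mice with that transgene and a floxed Kap1 gene (TgAlbCreKap1lox, KAP1-deleted liver), and from primary liver tumours of the mice lacking hepatic Kap1. Each group held 2 libraries, and all mice had eaten a high-fat diet (HFD) for 27 weeks and were killed at 35 weeks of age. By the mouse codes in the sample titles, tumour 1 and KAP1-deleted liver 1 came from 1 mouse, and tumour 2 and KAP1-deleted liver 2 from another. Alb-Cre expresses Cre recombinase from the albumin promoter, which is active in hepatocytes, so macrophages are not the cells the deletion is aimed at. Every control liver also carried the transgene, and no group lacked Cre or the high-fat diet.

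Kupffer cells are the resident macrophages of the liver sinusoids. They take up bacteria, dying red cells, lipoproteins and complement-coated particles from the blood, and mouse Kupffer cells are recognised by the lectin Clec4f and the phosphatidylserine receptor Timd4. Monocytes recruited from blood carry Ccr2 and Ly6c2 and can turn into macrophages that at first lack Timd4. MHC class II molecules display peptides to CD4 T cells and are made by macrophages, dendritic cells and B cells.

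Values are CPM, the reads of a gene per 1000000 reads in genes after scaling by the trimmed mean of M values (TMM). Reads in genes totalled 39723997 to 62178752 per library. Trim28, which encodes KAP1, had 32.5 and 35.9 CPM in the control livers, 5.06 and 6.01 CPM in the KAP1-deleted livers and 5.22 and 4.59 CPM in the tumours, so it was low in both groups labelled as lacking it. The livers matched their tissue label, since 5 hepatocyte markers including Alb summed to between 65405 and 86339 CPM. In the tumours the same markers summed to 22531 and 41289 CPM. Sums of 6 stellate cell markers were 308 to 403 CPM in livers and 113 and 265 CPM in tumours, and sums of 6 endothelial markers were 252 to 275 CPM in livers and 191 and 171 CPM in tumours. How far these differences in marker sums bear on the macrophage genes was not tested. In bulk tissue, fewer cells of a type and less RNA per cell cannot be told apart.

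The first comparison asked whether loss of KAP1 in hepatocytes altered macrophage transcripts of non-tumour liver. None of the 29 genes changed between KAP1-deleted and control liver in edgeR's quasi-likelihood test, at an adjusted p under 0.05 or at an unadjusted p under 0.05, and DESeq2 and limma-voom also called 0. Of all genes tested, 0.336% were called by edgeR (0.239% higher and 0.0968% lower), 1.31% by DESeq2 and 0.216% by limma-voom, and 5.44% had an unadjusted edgeR p under 0.05. The 29 log2 fold changes ran from -0.42 to 0.69 with a median of -0.02, and 13 were above and 16 below 0. Summed CPM of the resident Kupffer genes was 437 and 395 in the controls and 456 and 412 with KAP1 deleted, so the groups overlapped. The MHC class II genes summed to 70.0 and 139 CPM in the controls and 78.3 and 88.8 CPM with KAP1 deleted, and the wider spread lay in the controls. Libraries of the 2 groups overlapped for 25 genes, Timd4 and Cd5l were higher in both KAP1-deleted livers, and Cd163 and Mpeg1 were lower in both. Non-overlap of this kind was seen for 16.7% of all genes in the higher and 14.6% in the lower direction. With 2 libraries per group, these ranges do not show that the livers were alike.

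The tumours differed from the livers. Against KAP1-deleted liver, 7 of the 29 genes fell and 1 rose by the same test, where 6.64% of all genes fell and 4.8% rose. All 7 that fell belong to the 8 resident Kupffer genes, and the 1 that rose, H2-Ab1, is an MHC class II gene. The median log2 fold change was -1.78 over the resident Kupffer genes, -0.43 over the C1q genes, -0.23 over the pan-macrophage genes, 0.60 over the monocyte genes, -0.74 for the lipid-associated pair and 1.59 over the class II genes, beside -0.03 over all genes tested. Unadjusted p-values under 0.05 were found for 15 of the 29 genes and for 29.1% of all genes. Both tumours lay below both KAP1-deleted livers for 15 of the 29 genes and above them for 6, where the shares of all genes were 34.8% and 28.7%. When 1 of the 4 libraries compared was left out, fewer members were called lower and no more were called higher. Fewer of all genes were called in those fits, in either direction. Without either control liver, more members and more of all genes were called higher. The 7 that fell stayed below 0, and the 4 class II genes above 0, with any 1 library left out. DESeq2 called 4 members higher and 7 lower, and limma-voom 0 higher and 7 lower, where they called 16.2% and 11.8% of all genes in either direction and edgeR 11.4%. With the mouse as a block, 10 genes were called lower and 6 higher, beside 14.1% and 11.9% of all genes under that fit, which leaves 1 residual degree of freedom.

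Against control liver, 8 genes fell and 0 rose, where 7.76% of all genes fell and 6.15% rose. The 8 were the same 7 resident Kupffer genes and Csf1r. In that comparison DESeq2 called 3 members higher and 8 lower and limma-voom 0 higher and 7 lower, out of 18.1% and 13.9% of all genes called in either direction, where edgeR called 13.9%. Without adjustment 15 members and 30% of all genes had an edgeR p under 0.05, and both tumours lay below both controls for 14 members and above them for 6, beside 29.9% and 26.5% of all genes. With any 1 library left out, fewer than 8 members were called lower. Fewer of all genes were called lower as well, except without control liver 1. In these fits members were called higher only without control liver 2 or tumour 1, where fewer of all genes were. All 8 that fell kept a negative log2 value in these fits. Both comparisons use the same 2 tumours, so they are not independent of each other. Scaling by library totals in place of TMM moved the median of all genes to 0.50 against KAP1-deleted liver and 0.45 against control liver, and the members then split into 6 higher and 5 lower in either comparison (24.6% higher and 2.96% lower over all genes against KAP1-deleted liver, 22.5% and 3.57% against control liver).

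**Figure D1:**
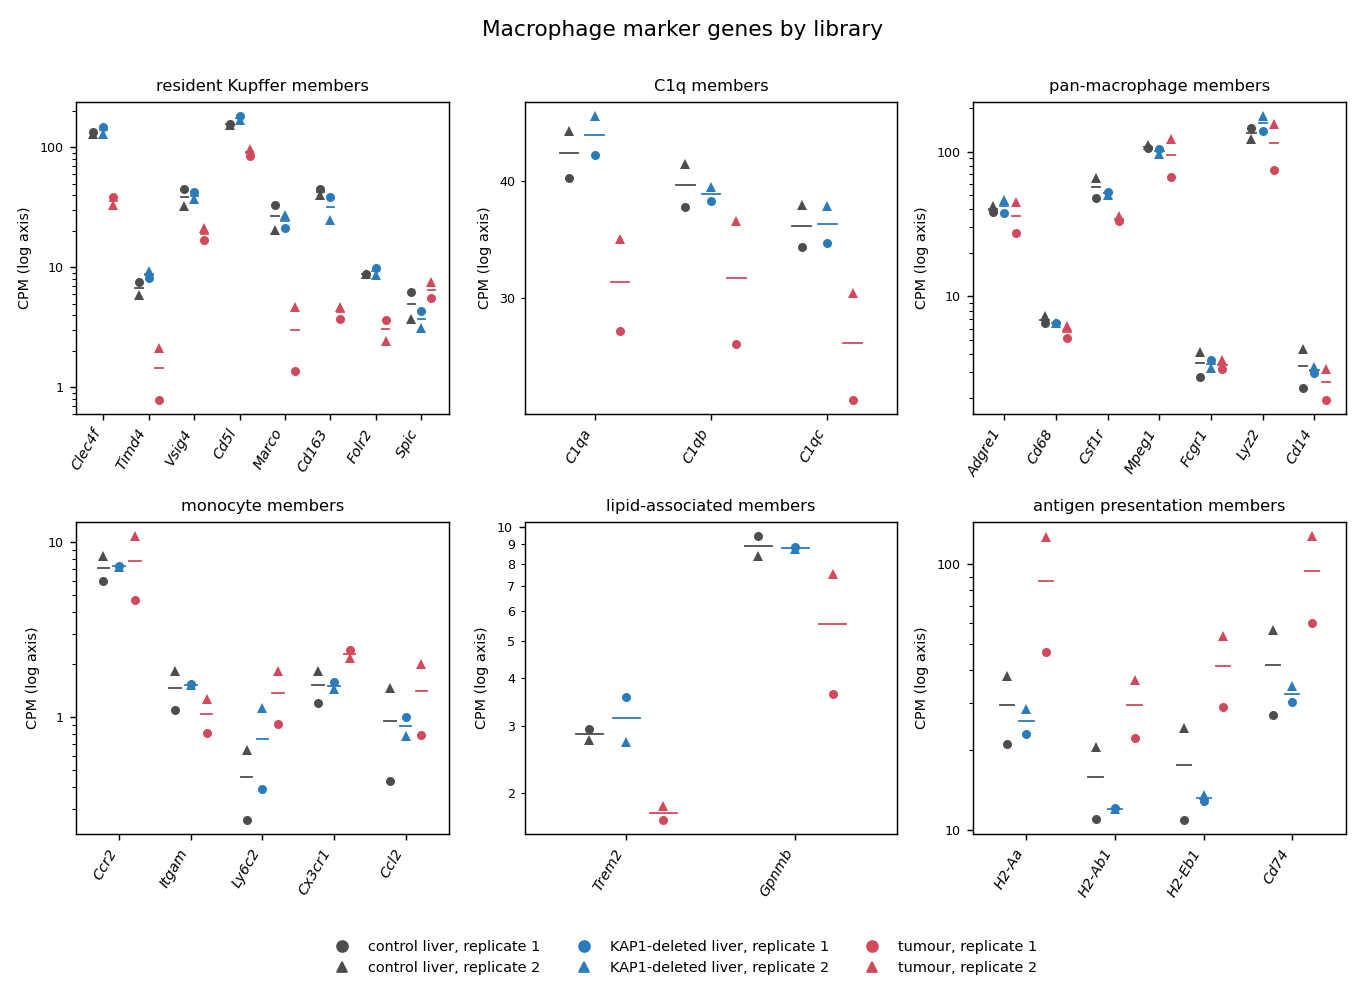
CPM (log axis) of the 29 genes in each of the 6 libraries, 1 panel per gene group, with a bar at each group mean, circles for replicate 1 and triangles for replicate 2. The tumour points lie below all liver points for 7 resident Kupffer genes and above all liver points for the 4 antigen presentation genes. They also lie below for the 3 C1q genes, Cd68, Csf1r, Trem2 and Gpnmb, and above for Cx3cr1. Of all genes, both tumours lay below both KAP1-deleted livers for 34.8% and above them for 28.7%. Against both control livers the shares were 29.9% and 26.5%.

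**Figure D2:**
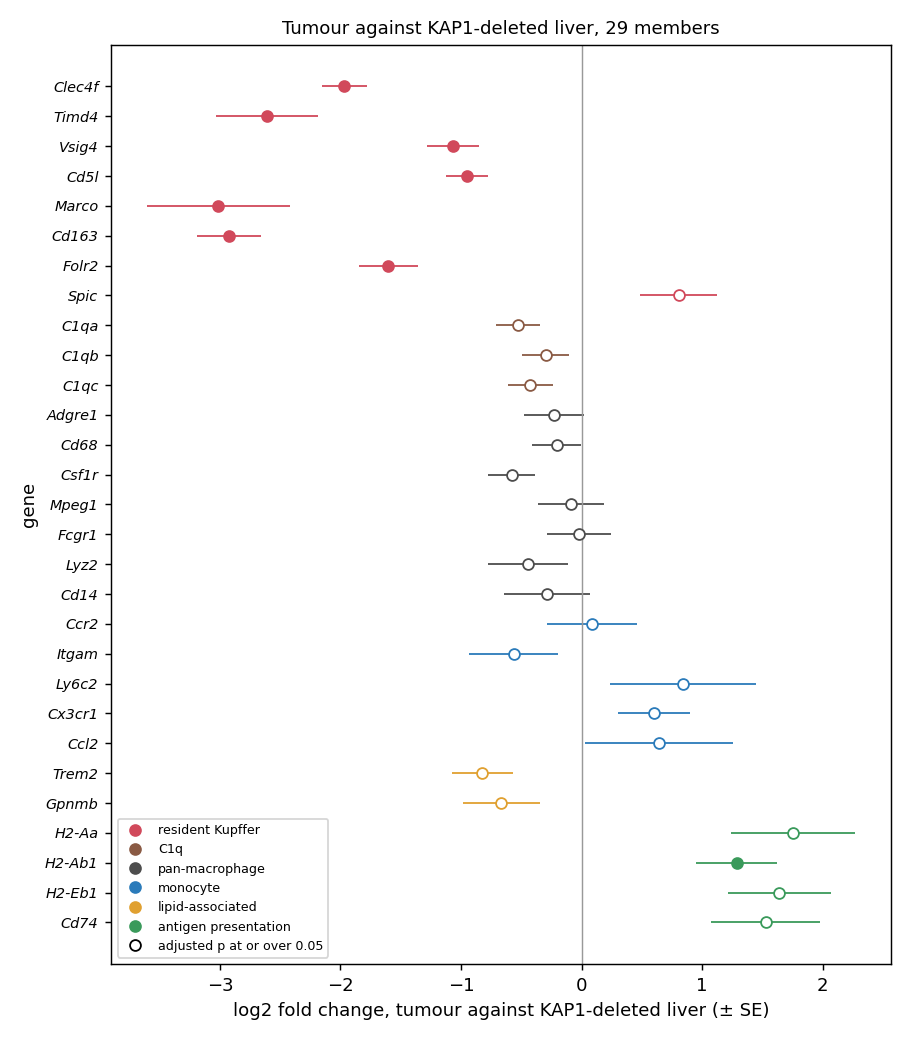
Fitted log2 fold change (horizontal axis, ± SE) of each of the 29 genes in tumour against KAP1-deleted liver, with filled points for an edgeR adjusted p under 0.05. The filled points are 7 resident Kupffer genes to the left of 0 and H2-Ab1 to the right.

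Among receptors that clear material from the blood, the fall in the tumours was deepest for Marco, Cd163 and Timd4. Cd163, the scavenger receptor for haemoglobin bound to haptoglobin (chromosome 6), had 45.0 and 39.8 CPM in the control livers, 39.0 and 24.9 CPM in the KAP1-deleted livers and 3.70 and 4.72 CPM in the tumours. Every tumour value was far below every liver value. The fall against KAP1-deleted liver was 7.597-fold (log2 fold change -2.93 ± 0.26 SE, edgeR adjusted p = 0.0013), and against control liver 10.1-fold (log2 -3.33 ± 0.27, edgeR adjusted p = 0.000675). Marco, a scavenger receptor for bacteria and particles (chromosome 1), had 33.2 and 20.3 CPM in the control livers, 21.1 and 27.3 CPM in the KAP1-deleted livers and 1.38 and 4.68 CPM in the tumours. Its tumour values differed from each other more than those of Cd163, and its SE was wider: the fall was 8.08-fold (log2 -3.01 ± 0.59, edgeR adjusted p = 0.0308). That call was lost without control liver 1 (adjusted p = 0.104), control liver 2 (0.107), KAP1-deleted liver 1 (0.17) or KAP1-deleted liver 2 (0.246), and with only the 4 libraries compared (0.0845). Its adjusted p over all alternatives ran from 4.0e-30 to 0.246, and the log2 value was -2.37 without tumour 1 and -4.14 without tumour 2. Against control liver Marco fell too (log2 -3.15 ± 0.60, edgeR adjusted p = 0.0245), a call lost without control liver 1 or 2 (0.139 for each) or KAP1-deleted liver 1 or 2 (0.108 and 0.103) and with only the 4 libraries compared (0.0782). Without tumour 1 this value was -2.51 and without tumour 2 it was -4.28. Timd4, which binds phosphatidylserine on dying cells (chromosome 11), had 7.53 and 5.91 CPM in the control livers, 8.20 and 9.28 CPM in the KAP1-deleted livers and 0.787 and 2.11 CPM in the tumours. Both tumours were again below all 4 livers, with a fall of 6.10-fold against KAP1-deleted liver (log2 -2.61 ± 0.42, edgeR adjusted p = 0.0102) and 4.68-fold against control liver (log2 -2.23 ± 0.42, edgeR adjusted p = 0.014). The second of these calls was lost without control liver 1 (adjusted p = 0.0619) or control liver 2 (0.062), in a range of 9.2e-13 to 0.062 over its alternatives. Without tumour 2 the Timd4 log2 values were -3.48 and -3.10 in the 2 comparisons, and without tumour 1 they were -2.05 and -1.67.

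Clec4f, a C-type lectin that in mice is largely restricted to Kupffer cells (chromosome 6), had 134 and 129 CPM in the control livers, 149 and 130 CPM in the KAP1-deleted livers and 38.5 and 33.0 CPM in the tumours. Its replicates lay close together in each group, and the tumours held 3.91-fold less than KAP1-deleted liver (log2 -1.97 ± 0.18, edgeR adjusted p = 0.0015) and 3.68-fold less than control liver (log2 -1.88 ± 0.18, edgeR adjusted p = 0.00125). Within mice the log2 difference of tumour from liver was -1.95 in mouse 1 and -1.98 in mouse 2, the smallest gap between mice among the 7 genes that fell. Folr2, a folate receptor of resident macrophages (chromosome 7), had 8.83 and 8.77 CPM in the control livers, 9.83 and 8.68 CPM in the KAP1-deleted livers and 3.66 and 2.42 CPM in the tumours. Its fall was 3.03-fold against KAP1-deleted liver (log2 -1.60 ± 0.24, edgeR adjusted p = 0.00805) and 2.89-fold against control liver (log2 -1.53 ± 0.24, edgeR adjusted p = 0.00759). Exons of Folr2 overlap the antisense gene Gm10602 in part, and no source used here gives the strand setting of the counting, so reads of the pair may not be told apart. Clec4f, Timd4, Cd163 and Folr2 were called lower against KAP1-deleted liver under all 17 alternative settings.

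The remaining pair of resident genes fell less. Vsig4, the complement receptor that binds C3b-coated particles (chromosome X), had 44.9 and 32.7 CPM in the control livers, 42.6 and 36.9 CPM in the KAP1-deleted livers and 16.9 and 21.1 CPM in the tumours. The fall was 2.09-fold against KAP1-deleted liver (log2 -1.07 ± 0.22, edgeR adjusted p = 0.0209) and 2.04-fold against control liver (log2 -1.03 ± 0.22, edgeR adjusted p = 0.0202). Against KAP1-deleted liver the call was lost without KAP1-deleted liver 1 (adjusted p = 0.0808), tumour 1 (0.121) or tumour 2 (0.0509) and with library totals (0.0775), and its alternatives ran from 6.9e-05 to 0.121. Against control liver it was lost without tumour 1 (0.118) or tumour 2 (0.0505) and with library totals (0.0738). Cd5l, a secreted scavenger-family protein that supports macrophage survival (chromosome 3), had 157 and 155 CPM in the control livers, 182 and 171 CPM in the KAP1-deleted livers and 85.7 and 96.6 CPM in the tumours. It fell 1.94-fold against KAP1-deleted liver (log2 -0.95 ± 0.18, edgeR adjusted p = 0.0152) and 1.71-fold against control liver (log2 -0.77 ± 0.17, edgeR adjusted p = 0.0261). Per kilobase of exon, Cd5l stayed the most abundant resident gene in every group, at 76.6, 86.6 and 44.8 CPM per kb in control liver, KAP1-deleted liver and tumour, ahead of Clec4f at 53.2, 56.5 and 14.5 CPM per kb. The Cd5l call against KAP1-deleted liver was lost without any 1 of the 4 libraries compared (adjusted p = 0.0857 and 0.075 without KAP1-deleted livers 1 and 2, and 0.0951 and 0.0509 without tumours 1 and 2) and with library totals (0.118), where the lowest adjusted p over its alternatives was 3.6e-05. Against control liver it was lost without control liver 2 (0.053), either KAP1-deleted liver (0.0546 and 0.0538) or either tumour (0.136 and 0.0757), with library totals (0.244) and with only the 4 libraries compared (0.0543).

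Spic was the exception among the resident genes. It encodes a transcription factor that, in splenic red pulp, is induced by haem and needed for macrophages that recycle iron. Spic had 6.26 and 3.73 CPM in the control livers, 4.31 and 3.13 CPM in the KAP1-deleted livers and 5.51 and 7.52 CPM in the tumours. The tumours lay above the KAP1-deleted livers and overlapped the control livers, with a log2 difference of 0.81 ± 0.32 from KAP1-deleted liver (edgeR adjusted p = 0.138) and 0.39 ± 0.31 from control liver (edgeR adjusted p = 0.451). It was called higher against KAP1-deleted liver with the mouse as a block (edgeR adjusted p = 0.0104), with library totals (0.0155) and without the count filter (0.0303), and its alternatives ran from 0.010 to 0.547. Summed over the 8 resident genes, the tumours held 156 and 172 CPM against 412 and 456 CPM in KAP1-deleted livers, or 37.8% of the KAP1-deleted mean.

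The C1q genes, which lie side by side on chromosome 4 and encode the 3 chains of the first complement component, are made in liver mainly by Kupffer cells. C1qa had 40.4 and 45.3 CPM in the control livers, 42.6 and 47.0 CPM in the KAP1-deleted livers and 27.6 and 34.7 CPM in the tumours. C1qb had 37.5 and 41.8, 38.1 and 39.4, and 26.8 and 36.3 CPM in the same order. C1qc had 34.0 and 37.7, 34.4 and 37.6, and 23.3 and 30.3 CPM. For all 3 genes both tumours were below all 4 livers, but none passed the test by edgeR, DESeq2 or limma-voom, and 1 had an unadjusted edgeR p under 0.05. Of all genes, 34.8% lay below both KAP1-deleted livers in both tumours and 29.9% below both control livers. The share below all 4 livers was not computed. Their log2 differences from KAP1-deleted liver were -0.53 ± 0.18 for C1qa (edgeR adjusted p = 0.103), -0.30 ± 0.19 for C1qb (0.343) and -0.43 ± 0.19 for C1qc (0.176), and with library totals the 3 values turned to 0.0040, 0.23 and 0.10. Per kilobase, C1qa held 41.2, 43.1 and 29.9 CPM per kb, C1qb 36.5, 35.6 and 28.97, and C1qc 18.6, 18.6 and 13.9, in control liver, KAP1-deleted liver and tumour, so the order of the 3 mean levels was the same in each group. Of the 20 tested genes nearest to the C1q cluster, from E2f2 to Eif4g3, 2 fell and 0 rose in tumour against KAP1-deleted liver, with a median log2 fold change of -0.31. Against control liver 4 of the 20 fell and 0 rose (median -0.057), beside 6.64% and 7.76% of all genes lower in the 2 comparisons.

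None of the 7 pan-macrophage genes changed in tumour against KAP1-deleted liver, and 1 of them, Csf1r, had an unadjusted p under 0.05. DESeq2 and limma-voom called 0 of them as well, and with library totals 6 of the 7 log2 values turned above 0, all but that of Csf1r. Adgre1, which encodes the F4/80 antigen (chromosome 17), had 38.3 and 41.97 CPM in the control livers, 37.9 and 46.5 CPM in the KAP1-deleted livers and 27.3 and 45.0 CPM in the tumours. Only tumour 1 was below the livers, and the log2 difference from KAP1-deleted liver was -0.23 ± 0.25 (edgeR adjusted p = 0.588), or 0.087 without tumour 1 and 0.30 with library totals. Mpeg1, the pore-forming perforin-2 of phagosomes, had 106 and 111, 104 and 97.1, and 67.0 and 123 CPM in control liver, KAP1-deleted liver and tumour. Lyz2, lysozyme, had 147 and 123, 138 and 176, and 74.9 and 156 CPM. In both, tumour 1 was the lowest library and tumour 2 lay among or above the livers, with log2 differences of -0.09 ± 0.27 for Mpeg1 (edgeR adjusted p = 0.861) and -0.44 ± 0.33 for Lyz2 (0.411). Without tumour 1 the Mpeg1 value was 0.28. Of the 31-base words of Lyz2, 67.2% occur in no other gene and the shared ones are mostly those of Lyz1, so some of its reads are uncertain.

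Cd68, a lysosomal glycoprotein, had 6.55 and 7.28 CPM in the control livers, 6.56 and 6.54 CPM in the KAP1-deleted livers and 5.16 and 6.21 CPM in the tumours (log2 -0.21 ± 0.20 against KAP1-deleted liver, edgeR adjusted p = 0.535). Fcgr1, the high-affinity IgG receptor CD64, had 2.80 and 4.16, 3.63 and 3.22, and 3.15 and 3.62 CPM (log2 -0.02 ± 0.26, edgeR adjusted p = 0.969), and Cd14, the co-receptor for lipopolysaccharide, had 2.34 and 4.31, 2.97 and 3.24, and 1.93 and 3.18 CPM (log2 -0.29 ± 0.36, edgeR adjusted p = 0.638). The groups overlapped for Fcgr1 and Cd14, and the tumours were just below the livers for Cd68. Csf1r, the receptor for CSF1 and IL-34 on which macrophage survival depends, had 47.9 and 65.9 CPM in the control livers, 53.1 and 49.9 CPM in the KAP1-deleted livers and 33.0 and 35.9 CPM in the tumours. Both tumours were below all livers, and Csf1r fell against control liver (log2 -0.72 ± 0.20, edgeR adjusted p = 0.0471) while it did not pass against KAP1-deleted liver (log2 -0.58 ± 0.20, edgeR adjusted p = 0.098). The call against control liver was lost without control liver 2 (adjusted p = 0.173), KAP1-deleted liver 1 or 2 (0.0726 and 0.0724) or tumour 1 or 2 (0.196 and 0.137), and under 6 other settings, with a range of 0.014 to 0.389. Against KAP1-deleted liver it was called with the mouse as a block (edgeR adjusted p = 0.0357), with only the 4 libraries compared (0.0493) and without control liver 1 or 2 (0.0383 and 0.0462), where its alternatives ran from 0.036 to 0.892. Csf1r exons overlap the antisense gene Hmgxb3 in part.

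To compare genes within a library without any scaling between libraries, each CPM was divided by that of Adgre1 in the same library. Clec4f then stood at 3.51 and 3.07 CPM per CPM of Adgre1 in the controls, at 3.93 and 2.80 with KAP1 deleted, and at 1.41 and 0.733 in the tumours. Cd163 stood at 1.17 and 0.949, 1.03 and 0.536, and 0.135 and 0.105 in the same order, and H2-Aa at 0.550 and 0.906, 0.605 and 0.612, and 1.71 and 2.82. For the same 7 resident genes both tumours lay below all 4 livers on this ratio, and for the 4 class II genes both lay above. Gpnmb also lay below all 4 livers in both tumours, and Spic, Ly6c2 and Cx3cr1 also lay above. The share of all genes that separate in this way was not computed. C1qa stood at 1.06 and 1.08, 1.12 and 1.01, and 1.01 and 0.771, so the tumours overlapped the livers for C1qa on this ratio, as they did for C1qb and C1qc. The mean log2 CPM of the resident genes minus that of the pan-macrophage genes was 0.57 and -0.03 in the controls, 0.36 and 0.15 with KAP1 deleted, and -1.11 and -1.21 in the tumours. For the class II genes the same difference was -0.30 and 0.41, -0.24 and -0.15, and 1.33 and 1.80. The summed pan-macrophage CPM behind these differences was 212 in tumour 1, 373 in tumour 2 and 346 to 382 in the livers.

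**Figure D3:**
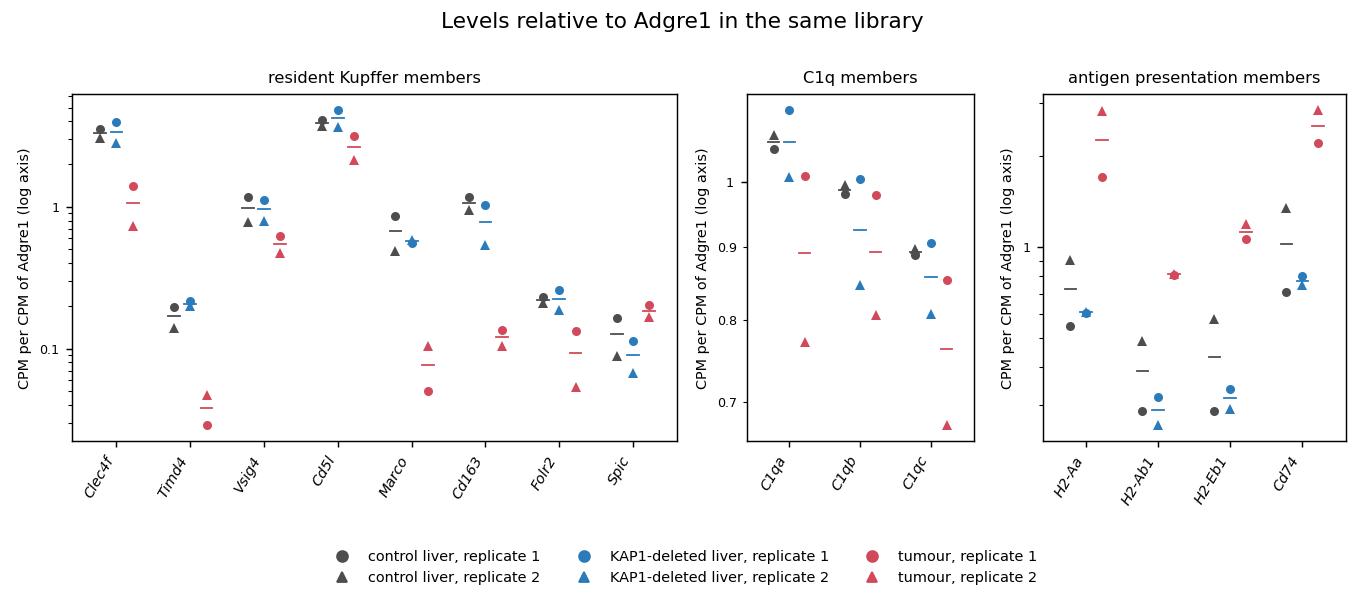
CPM of resident Kupffer, C1q and antigen presentation genes divided by the CPM of Adgre1 in the same library (log axis), for the 6 libraries, with a bar at each group mean. For Clec4f the tumours stand at 1.41 and 0.733 against 2.80 to 3.93 in the livers, and for H2-Aa at 1.71 and 2.82 against 0.550 to 0.906.

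None of the 5 monocyte genes changed in the tumours in either comparison by edgeR, and DESeq2 and limma-voom called 0 as well. An unadjusted p under 0.05 was found for 0 of them against KAP1-deleted liver and for 1 against control liver. Ccr2, the receptor for Ccl2 that brings monocytes out of bone marrow, had 6.03 and 8.30 CPM in the control livers, 7.33 and 7.24 CPM in the KAP1-deleted livers and 4.68 and 10.9 CPM in the tumours. Tumour 1 was the lowest and tumour 2 the highest of the 6 libraries, and the log2 difference from KAP1-deleted liver was 0.09 ± 0.37 (edgeR adjusted p = 0.898) with both and -0.65 without tumour 2. Its ligand Ccl2 had 0.433 and 1.46, 0.999 and 0.784, and 0.787 and 2.02 CPM in control liver, KAP1-deleted liver and tumour (log2 0.64 ± 0.62 against KAP1-deleted liver, edgeR adjusted p = 0.529). Ly6c2, the surface antigen of inflammatory monocytes, had 0.260 and 0.645, 0.386 and 1.12, and 0.911 and 1.83 CPM (log2 0.84 ± 0.61, edgeR adjusted p = 0.393). For both, at least 1 tumour lay within the range of the livers, and Ly6c2 shares words with Ly6c1, with 76.3% of its own found nowhere else. With the mouse as a block, Ly6c2 was called higher (edgeR adjusted p = 0.0288), the only alternative of that comparison in which it was, in a range of 0.029 to 0.863. Against control liver it was called with library totals and with no filter on low counts.

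Cx3cr1, the fractalkine receptor of patrolling monocytes and of some tissue macrophages, had 1.21 and 1.83 CPM in the control livers, 1.59 and 1.44 CPM in the KAP1-deleted livers and 2.43 and 2.17 CPM in the tumours. Both tumours were above all 4 livers, at a log2 difference of 0.60 ± 0.30 from KAP1-deleted liver (edgeR adjusted p = 0.224). Of all genes, 28.7% lay above both KAP1-deleted livers in both tumours and 26.5% above both control livers. Cx3cr1 was called higher only with library totals, against KAP1-deleted liver (edgeR adjusted p = 0.032) and control liver (0.043). That scaling called 24.6% and 22.5% of all genes higher. Itgam, the integrin CD11b, had 1.10 and 1.83, 1.54 and 1.52, and 0.814 and 1.28 CPM (log2 -0.56 ± 0.37, edgeR adjusted p = 0.353), and 31.9% of its words are its own. Monocyte genes summed to 9.03 and 14.1 CPM in the control livers, 11.9 and 12.1 CPM in the KAP1-deleted livers and 9.62 and 18.1 CPM in the tumours, so the groups overlapped. These are low levels, with 9 to 108 counts per library for Ly6c2, Itgam, Cx3cr1 and Ccl2 in the control livers, which limits the precision of their fold changes.

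The lipid-associated pair, markers of macrophages that gather around lipid-laden cells, was lower in the tumours without passing the test, at 0 calls by edgeR and 1 unadjusted p under 0.05 in either tumour comparison, and DESeq2 and limma-voom called 0. Trem2, a lipid-sensing receptor, had 2.94 and 2.75 CPM in the control livers, 3.56 and 2.71 CPM in the KAP1-deleted livers and 1.70 and 1.85 CPM in the tumours (log2 -0.82 ± 0.25 against KAP1-deleted liver, edgeR adjusted p = 0.0754). Gpnmb, a membrane glycoprotein of lysosome-rich macrophages, had 9.46 and 8.40, 8.88 and 8.73, and 3.63 and 7.50 CPM (log2 -0.67 ± 0.32, edgeR adjusted p = 0.212). Both tumours were below all livers for each gene, though tumour 2 was close to them for Gpnmb. With the mouse as a block both were called lower (edgeR adjusted p = 0.0221 for Trem2 and 0.0334 for Gpnmb), and their alternatives ran from 0.022 to 0.42 and from 0.030 to 0.725. Gpnmb was also called without tumour 2 (edgeR adjusted p = 0.0304).

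The 4 antigen presentation genes were higher in both tumours than in any liver. Of all genes, 28.7% lay above both KAP1-deleted livers in both tumours and 26.5% above both control livers. The share above all 4 livers was not computed. H2-Aa, H2-Ab1 and H2-Eb1 encode chains of the class II molecules I-A and I-E and lie together on chromosome 17, and Cd74 encodes the invariant chain that escorts them. Promoters of class II genes hold a conserved Y box, bound by NF-Y, as part of the module through which the coactivator CIITA acts. The 150 bases before the annotated start are shown for 2 members, with the Y box in capitals. Among the members searched, these are the 2 whose 300-base RefSeq promoter (GRCm38.p6) holds the Y box letters CTGATTGG. The stretches lie on chromosome 17, at chr17:34287824-34287973 on the minus strand for H2-Aa and chr17:34305717-34305866 on the plus strand for H2-Eb1.
H2-Aa: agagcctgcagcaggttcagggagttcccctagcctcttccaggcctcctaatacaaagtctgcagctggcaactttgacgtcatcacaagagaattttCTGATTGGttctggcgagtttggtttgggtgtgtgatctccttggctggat
H2-Eb1: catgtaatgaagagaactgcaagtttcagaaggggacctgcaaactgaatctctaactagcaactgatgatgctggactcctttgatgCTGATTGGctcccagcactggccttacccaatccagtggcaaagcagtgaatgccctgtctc
The match lies 51 to 44 bases before the start in H2-Aa and 62 to 55 bases before it in H2-Eb1. On both strands the same letters were found in 2 of the 22 members searched, and in 4.70% of 27025 genes. Some members, Cd74 among them, were left out of this search, so whether they hold either box was not tested. The 27025 genes were not cut in the same way. The PU box letters GAGGAAGT, known for the macrophage factor PU.1, were found in 2 of the 22, C1qc and Ly6c2, and in 3.69% of all genes. A match describes letters only.

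H2-Ab1 had 11.0 and 20.6 CPM in the control livers, 12.1 and 11.9 CPM in the KAP1-deleted livers and 22.1 and 36.7 CPM in the tumours. It rose 2.44-fold against KAP1-deleted liver (log2 1.29 ± 0.34, edgeR adjusted p = 0.0477), with both mice up, by 0.87 and 1.62 on the log2 scale. This was the 1 class II call, and it was lost without KAP1-deleted liver 1 (adjusted p = 0.192) or 2 (0.247), without tumour 1 (0.0637) or 2 (0.212), with limma-voom (0.054) and without the robust fit (0.0516), in a range of 1.0e-06 to 0.247. Against control liver, where tumour 1 was only just above control liver 2, H2-Ab1 did not pass (log2 0.89 ± 0.33, edgeR adjusted p = 0.118).

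H2-Aa had 21.0 and 38.0 CPM in the control livers, 23.0 and 28.5 CPM in the KAP1-deleted livers and 46.7 and 127 CPM in the tumours. Tumour 2 was far above every other library, and the log2 difference from KAP1-deleted liver was 1.76 ± 0.51 (edgeR adjusted p = 0.0819), or 0.85 without tumour 2 and 2.30 without tumour 1. H2-Eb1 had 10.9 and 24.2, 12.9 and 13.6, and 28.98 and 53.6 CPM in control liver, KAP1-deleted liver and tumour (log2 1.64 ± 0.43 against KAP1-deleted liver, edgeR adjusted p = 0.0549). Cd74 had 27.1 and 56.5, 30.4 and 34.9, and 60.2 and 128 CPM (log2 1.53 ± 0.45, edgeR adjusted p = 0.0795). The 4 genes shared an order of libraries: tumour 2 was highest, tumour 1 next, and control liver 2 the highest liver. None of the 4 passed against control liver (log2 from 0.89 to 1.55, edgeR adjusted p 0.102 to 0.139), although all 4 had an unadjusted p under 0.05 there and against KAP1-deleted liver. All 4 were called against control liver with library totals (adjusted p 0.0242 to 0.0425) and with no filter, and DESeq2 called H2-Aa (0.00561), H2-Eb1 (0.0198) and Cd74 (0.0328). H2-Ab1 (0.0419) and H2-Eb1 (0.0405) were called there without control liver 2, and H2-Aa (0.0249) without tumour 1. With the mouse as a block, the gain over KAP1-deleted liver was called for H2-Aa (edgeR adjusted p = 3.0e-05), H2-Eb1 (5.5e-08) and Cd74 (9.2e-07) as well, with DESeq2 adjusted p = 0.00136, 0.000914 and 0.00314, and over all alternatives the adjusted p ran up to 0.413, 0.328 and 0.383. Against KAP1-deleted liver H2-Ab1 was called under 11 of 17 alternatives, H2-Eb1 under 10, H2-Aa under 5 and Cd74 under 4. No alternative turned the direction of a class II gene in either tumour comparison. Summed over the 4 genes, the tumours held 158 and 345 CPM, which is 301% of the KAP1-deleted liver mean and 240% of the control mean. These sums rested in part on tumour 2: without it the log2 ratio went from 1.59 to 0.91 against KAP1-deleted liver and from 1.27 to 0.58 against control liver.

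Class II transcripts can come from cells other than macrophages, and the levels of those cells' markers are therefore given beside them. The 6 dendritic cell markers summed to 16.0 to 21.6 CPM in livers and 19.7 and 22.8 CPM in tumours, and the 5 B cell markers to 1.15 to 7.16 CPM in livers and 2.26 and 1.54 CPM in tumours. The 6 T and NK cell markers summed to 1.10 to 2.01 CPM in livers and 2.46 and 6.07 CPM in tumours, and 4 pan-leukocyte markers to 62.0 to 69.6 CPM in livers and 52.2 and 98.7 CPM in tumours. T and NK markers were thus higher in both tumours than in the livers, pan-leukocyte markers in tumour 2 alone, and the B cell sums overlapped, with KAP1-deleted liver 2 the highest. Of the 6 dendritic cell markers, 1 rose by edgeR in either comparison, with 5 above and 1 below 0 against KAP1-deleted liver (median log2 0.37, lowest -0.26) and 3 above and 3 below 0 against control liver (median 0.06, lowest -0.52). All 6 T and NK cell markers lay above 0 in both comparisons, where 0 passed against KAP1-deleted liver and 1 against control liver. The marker called in each list was singled out after its values were seen. Xcr1, of cross-presenting dendritic cells, had 0.693 and 0.560, 0.636 and 0.678, and 1.56 and 2.15 CPM in control liver, KAP1-deleted liver and tumour, and rose against KAP1-deleted liver (log2 1.49 ± 0.33, edgeR adjusted p = 0.0285), a call lost without KAP1-deleted liver 1 or 2 (0.155 and 0.17) or tumour 1 or 2 (0.0585 and 0.115). Xcr1 also rose against control liver (log2 1.57 ± 0.34, edgeR adjusted p = 0.0216), a call lost without control liver 2 (0.1001) or tumour 2 (0.094). Cd8a, of cytotoxic T cells, had 0.202 and 0.221, 0.182 and 0.381, and 0.704 and 1.66 CPM (log2 2.04 ± 0.55 against KAP1-deleted liver, edgeR adjusted p = 0.0529). Cd8a rose against control liver (log2 2.45 ± 0.58, edgeR adjusted p = 0.0299), a call lost with limma-voom (0.0519) and without control liver 1 or 2 (0.0738 and 0.109) or tumour 2 (0.138), where the log2 value was 1.71. The part of these cells in the class II gain was not tested. The 6 neutrophil markers summed to 4.65 to 7.56 CPM in livers and 4.85 and 4.70 CPM in tumours, with Ly6g at 0 in every library.

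**Figure D4:**
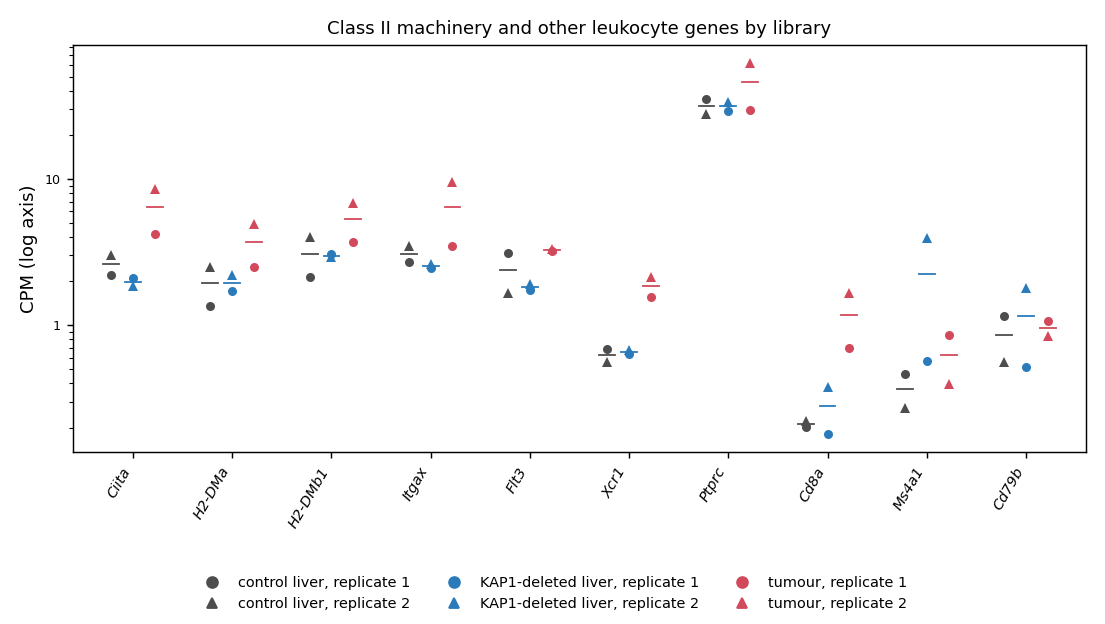
CPM (log axis) of genes of the class II pathway and of other leukocytes in the 6 libraries, with a bar at each group mean. Ciita stands at 4.21 and 8.55 CPM in tumours against 1.86 to 3.02 CPM in livers, and Ptprc at 29.7 and 61.7 CPM against 27.7 to 35.0 CPM.

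Further genes of the same pathways were read from lists of 8 to 13 genes drawn up by known function. The lists were chosen with earlier results of these data known, so their genes are not independent support for the members. In KAP1-deleted against control liver, 0 genes of these 7 lists were called by edgeR, while an unadjusted p under 0.05 was found for 3 of the other Kupffer genes and 1 of the other monocyte genes. DESeq2 called 1 gene in each of those 2 lists and limma-voom 0. The counts of the 7 lists in the tumours are to be read against all genes tested, of which edgeR called 11.4% against KAP1-deleted and 13.9% against control liver. Of 12 other genes of the class II pathway, 1 rose and 1 fell in tumour against KAP1-deleted liver, and 0 were called against control liver, where 3 reached an unadjusted p under 0.05, as did 30% of all genes. There DESeq2 gave 2 calls and limma-voom 0, beside 18.1% and 13.9% of all genes. Ciita, the master coactivator of class II genes, had 2.19 and 3.02 CPM in the control livers, 2.09 and 1.86 CPM in the KAP1-deleted livers and 4.21 and 8.55 CPM in the tumours, and rose 3.22-fold against KAP1-deleted liver (log2 1.69 ± 0.36, edgeR adjusted p = 0.0258). Both tumours were above all livers, and the call was lost without KAP1-deleted liver 1 (0.0761) or 2 (0.1246) or tumour 2 (0.0942, log2 1.08). Lgmn, a lysosomal protease, fell (log2 -0.71 ± 0.18, edgeR adjusted p = 0.043), a call lost without KAP1-deleted liver 1 or 2 (0.205 and 0.159) or tumour 1 or 2 (0.206 and 0.0787).

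Of 8 other Kupffer cell genes, 2 fell and 1 rose in tumour against KAP1-deleted liver, and 1 fell against control liver. Fcna, the macrophage lectin ficolin A, had 38.7 and 31.1, 28.6 and 35.4, and 8.77 and 7.65 CPM in control liver, KAP1-deleted liver and tumour. Both tumours were far below the livers, and Fcna fell 3.89-fold against KAP1-deleted liver (log2 -1.96 ± 0.20, edgeR adjusted p = 0.00221) and 4.25-fold against control liver (log2 -2.09 ± 0.20, edgeR adjusted p = 0.00125). Slc40a1, the iron exporter ferroportin, had 169 and 176, 282 and 223, and 82.0 and 116 CPM, and fell against KAP1-deleted liver (log2 -1.35 ± 0.23, edgeR adjusted p = 0.0118, lost at 0.0731 without tumour 1). Complement C6, listed with Kupffer cells and also made by hepatocytes, moved the other way, at 150 and 81.0, 28.9 and 46.2, and 132 and 133 CPM. Its rise against KAP1-deleted liver (log2 1.82 ± 0.33, edgeR adjusted p = 0.0147) was lost without KAP1-deleted liver 1 (0.0516) or tumour 1 or 2 (0.0685 and 0.0573), and the tumours were within the range of the control livers.

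From the list of the CSF1 axis and its transcription factors, Maf and Spi1 are described. Maf, a bZIP factor that restrains self-renewal of macrophages, had 46.1 and 36.8, 55.5 and 42.9, and 16.9 and 25.9 CPM in control liver, KAP1-deleted liver and tumour. Both tumours were below all livers, and Maf fell against KAP1-deleted liver (log2 -1.20 ± 0.25, edgeR adjusted p = 0.0236), a call lost without KAP1-deleted liver 1 (0.0849) or tumour 1 (0.117). Against control liver Maf fell as well (log2 -0.96 ± 0.25, edgeR adjusted p = 0.0426), a call lost without control liver 1 or 2 (0.107 and 0.0592) or tumour 1 (0.19). Spi1, which encodes PU.1, did not pass (log2 -0.36 against KAP1-deleted liver, edgeR adjusted p = 0.354).

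Among 9 tested chemokines, 1 fell against KAP1-deleted liver and 2 fell against control liver. Most of the list lay the other way, with 6 log2 values above 0 and 3 below in either comparison. The medians were 0.74 against KAP1-deleted liver and 0.14 against control liver. Ccl6, a chemokine of resting macrophages, had 18.4 and 13.5, 20.1 and 14.5, and 5.92 and 8.87 CPM in control liver, KAP1-deleted liver and tumour (log2 -1.23 ± 0.28 against KAP1-deleted liver, edgeR adjusted p = 0.0293, lost at 0.116 without KAP1-deleted liver 1 and 0.146 without tumour 1). Its fall against control liver (log2 -1.11 ± 0.28, edgeR adjusted p = 0.0357) was lost without control liver 1 (0.0921) or tumour 1 (0.171). Ccl9 had 23.9 and 31.9, 23.0 and 18.2, and 2.04 and 7.10 CPM, and fell against control liver (log2 -2.62 ± 0.57, edgeR adjusted p = 0.0337), a call lost without control liver 1 or 2 (0.15 and 0.253) or KAP1-deleted liver 1 or 2 (0.131 and 0.132). The Ccl9 value was -1.98 without tumour 1 and -3.78 without tumour 2. Ccl8 had at most 0.106 CPM in any liver and 0.525 and 6.74 CPM in the tumours, so its tumour level rested on tumour 2 (edgeR adjusted p = 0.0756 against KAP1-deleted liver). None of 9 other monocyte genes was called in either tumour comparison, and an unadjusted p under 0.05 was found for 0 against KAP1-deleted liver and 1 against control liver. By DESeq2 the calls were 0 and 1, and by limma-voom 0 and 0.

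Of 9 other genes of lipid-associated macrophages, 1 rose in either tumour comparison. Against KAP1-deleted liver 2 of the 9 log2 values lay above 0, those of Lpl and Itgax, and 7 lay below (median -0.26). Against control liver 3 lay above 0 and 6 below (median -0.21). Lpl, lipoprotein lipase, had 18.1 and 18.4, 22.4 and 16.7, and 76.6 and 82.8 CPM in control liver, KAP1-deleted liver and tumour, and rose 4.07-fold against KAP1-deleted liver (log2 2.03 ± 0.19, edgeR adjusted p = 0.00166). Lpl is also made by other cells, and the source was not tested. Itgax, the integrin CD11c of dendritic cells and some macrophages, had 2.68 and 3.50, 2.45 and 2.63, and 3.45 and 9.46 CPM (log2 1.34 ± 0.44, edgeR adjusted p = 0.0902), and was high in tumour 2. Of 13 scavenger, Fc and toll-like receptor genes, 1 rose and 1 fell against KAP1-deleted liver, where 4.8% of all genes rose and 6.64% fell. Mertk, the receptor tyrosine kinase for uptake of dying cells, had 34.1 and 28.99, 31.4 and 29.97, and 58.7 and 57.7 CPM and rose (log2 0.92 ± 0.17, edgeR adjusted p = 0.0138), a call lost without KAP1-deleted liver 1 or 2 (0.0789 and 0.121) or tumour 1 or 2 (0.0686 and 0.0533). It also rose against control liver (log2 0.88 ± 0.17, edgeR adjusted p = 0.0134), a call lost without tumour 1 or 2 (0.0646 and 0.055). Fcgr2b, the inhibitory IgG receptor, fell from 50.1 and 47.2 CPM in KAP1-deleted livers to 19.6 and 32.3 CPM in tumours (log2 -0.91 ± 0.24, edgeR adjusted p = 0.0482), a call lost under 10 alternatives, among them without control liver 2 (0.051), KAP1-deleted liver 1 or 2 (0.137 and 0.134) or tumour 1 (0.169).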

How the data were processed

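RNA libraries were made from liver or tumour total RNA using a TruSeq kit that keeps strand, per the labels' protocols. The authors deposited, for each library, whole-number read counts per Ensembl gene, made with TopHat and HTSeq 0.6.1 on build mm9 per the submitters' processing notes. No source used here gives the strand setting of the counting. Entries naming no gene (20.9% to 36.7% of reads) were left out. All libraries carry 1 batch label. Gene symbols came from the GRCm38 annotation by Ensembl identifier. Counts were tested in edgeR 4.0.16 (R 4.3.3) with low genes removed by filterByExpr on the groups (at least 10 counts, total of at least 15), TMM and a robust quasi-likelihood fit over all 6 libraries (3 residual degrees of freedom, biological coefficient of variation 0.230). P-values were two-sided and Benjamini-Hochberg adjusted over 17558 genes at a threshold of 0.05, and the test was checked on simulated counts. The SE of a log2 fold change is its size over the square root of F. TMM factors were 0.864 to 0.948 in livers and 1.31 and 1.22 in tumours. Each group held 2 mice, so p-values rest on a spread estimated from few samples. The main fit treats the libraries as independent, although the tumours and KAP1-deleted livers come from the same 2 mice. Counts of replicates were further apart than sampling noise allows (chi-square of 82.6 to 320.7 for each degree of freedom), so none was taken as a duplicate. Mouse codes in the titles pair each tumour with a KAP1-deleted liver. Deviations of paired libraries correlated with r = 0.185 across genes. The block by mouse was an alternative that leaves 1 residual degree of freedom. Further alternatives were DESeq2 1.42.0, limma-voom (limma 3.58.1), other scalings and filters, and leaving out each library. All 29 members are named. Of each pathway list, up to 3 genes with the smallest p could be named, of which part are described and some are not reported here. Members and lists were chosen with earlier results of these data known.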

Additional observations from a re-analysis of the deposited data

How the results depend on the processing

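All 7 resident Kupffer genes that fell kept a negative, and all 4 class II genes a positive, log2 fold change in every alternative of both tumour comparisons, while the number of calls moved. Members called higher in tumour against KAP1-deleted liver numbered 1, beside 842 of all genes. They numbered 2 with upper-quartile scaling (970 of all genes), 6 with library totals (4313) and 5 with no filter (1563). With a mean CPM of at least 1 they numbered 2 (703), with DESeq2 4 (1254) and with limma-voom 0 (833). With only the 4 libraries compared they numbered 2 (1230), and with the replicate block by mouse 6 (2055). Leaving out 1 library moved the calls of members and of all genes. Members called lower there numbered 7 (1165 of all genes), 5 with library totals (520) and 10 with the replicate block (2421). When 1 of the 4 libraries compared was left out, fewer members and fewer of all genes were called lower. Against control liver, members called higher numbered 0 (1080 of all genes), 6 with library totals (3957), 5 with no filter (1801) and 3 with DESeq2 (1457). Some were also called higher with 1 library left out. Members called lower numbered 8 (1363 of all genes), 5 with library totals (627) and 5 with only the 4 libraries compared (996). Fewer than 8 were called lower with any 1 library left out. KAP1-deleted against control liver gave 0 calls throughout. Under library totals the log2 ratio of summed resident genes was -0.87 against both livers, and that of C1q genes turned to 0.11 against KAP1-deleted and 0.059 against control liver. The same scaling turned the tumour against KAP1-deleted liver values of C1qa (0.0040), C1qb (0.23), C1qc (0.10), Adgre1 (0.30), Cd68 (0.33), Mpeg1 (0.43), Fcgr1 (0.51), Lyz2 (0.073), Cd14 (0.24), Spi1 (0.17), Ly6c1 (0.29), Itgal (0.14) and Cd9 (0.23) above 0. Further sign changes were Mpeg1 (0.0076) and Fcgr1 (0.073) with upper-quartile scaling, Fcgr1 with DESeq2 size factors (0.032), a mean CPM of at least 1 (0.021), DESeq2 (0.032), only 4 libraries (0.021) and the block (0.019), Ccr2 (-0.064) and Ly6c1 (0.11) with limma-voom, and Ly6c1 (0.11) with the block. Without tumour 2 and without tumour 1, the lowest and highest values with 1 library left out were -0.64 and 0.087 for Adgre1, -0.60 and 0.28 for Mpeg1, -0.13 and 0.075 for Fcgr1, -0.70 and 0.029 for Cd14, -0.65 and 0.57 for Ccr2, -0.19 and 1.17 for Ccl2, and -0.029 and 1.67 for S100a4. For Ly6c1 they were -0.96 without KAP1-deleted liver 1 and 1.19 without KAP1-deleted liver 2. The cause of these changes was not tested.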
